A study of Homo sapiens with 15 samples.

Results

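Input RNA from 2 human prostate cancer cell lines, 22Rv1 and LNCaP, was compared across genes. The 4 input libraries, 2 per line, are 4 of the 15 libraries of an RNA immunoprecipitation study in which RNA bound to Brg1 or Sfpq, or to non-specific IgG, was sequenced beside input. The labels give both as prostate cancer cells from ATCC, name no treatment, and have them grown in RPMI1640 with foetal calf serum. The cells were fixed in formaldehyde before lysis, and input was diluted, mixed with ERCC spike-in RNA, depleted of ribosomal RNA and made into stranded libraries. The libraries were chosen by their labels, and the genes by row name. The tables hold 25311 different rows, of which 19400 stand in both, 3142 only in the 22Rv1 table and 2769 only in the LNCaP table. Genes on the X and Y chromosomes were left out, among them the androgen receptor.

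LNCaP and 22Rv1 are both used as models of prostate cancer that expresses the androgen receptor, LNCaP from a lymph node metastasis and 22Rv1 from a xenograft that relapsed after castration of the host. The luminal cells of the prostate gland, from which most such tumours take their character, carry keratins of simple epithelia, E-cadherin at their junctions, the pioneer factor FOXA1 and the homeobox factor HOXB13. With the androgen receptor, these factors switch on secretory genes such as the kallikreins KLK2 and KLK3, the latter encoding prostate-specific antigen. Genes of the HOX, PAX, EYA and IGF2BP families pattern the embryo, and many of them are silent in adult epithelia or active only in particular segments of the body.

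The libraries labelled 22Rv1 held 47871438 reads (input A) and 16037423 reads (input B), and those of LNCaP 7054033 and 7506724. Between 95.5% and 96.0% of the reads of each input fell on the shared rows. Levels are reads scaled to a total of 1000000 (CPM) over the shared rows, or over all rows of the own table for rows that only 1 table holds. Row names with the suffix .primary, whose meaning the labels do not state, were kept apart from plain names. The 2 inputs of a line resembled each other closely, with Spearman correlations across rows of 0.980 for 22Rv1 and 0.970 for LNCaP, against 0.721 to 0.742 between lines. The labels do not say whether libraries A and B came from separate cultures. P-values therefore measure only the spread between these samples, pooled in part over rows. With 2 libraries per line, the variance of each row was drawn towards a trend fitted over all rows. Each line also has its own table, so a difference between the lines and a difference in how the tables were made cannot be told apart.

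The libraries labelled 22Rv1 went against their label on luminal markers. Of 12 defining markers of prostate luminal cells, 7 were lower in them than in LNCaP, KRT8, KRT18, FOXA1, HOXB13, SLC45A3 and CDH1 among them, and the other 5 (KLK2, KLK3, TMPRSS2, FOLH1 and EPCAM) had a plain row only in the LNCaP table. The markers fixed for other cell types did not stand in their place. None of the 4 basal markers, none of the 6 neuroendocrine markers and none of the 4 immune markers had a plain row in either table. The stromal marker COL1A1 stood at 18.4 and 20.9 CPM against 20.7 and 19.99, with no difference called, and the other 5 stromal markers had no plain row. Of the 4 endothelial markers, VWF had a plain row only in the LNCaP table and the rest had none. These libraries are therefore called the libraries labelled 22Rv1 throughout, and every direction below is theirs against LNCaP.

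The promoters of the kallikrein genes KLK3 and KLK2 are shown because these neighbours on chromosome 19 are the standard androgen targets, and their rows stand only in the LNCaP table. Both sequences come from RefSeq (GRCh38.p14) and cover the 250 bases before the annotated start, on the plus strand. They lie at chr19:50854665-50854914 for KLK3 and at chr19:50873189-50873438 for KLK2. Capitals mark the match to the androgen receptor element GAACANNNNGTNCT, in which N is any base. It was searched on both strands.
KLK3: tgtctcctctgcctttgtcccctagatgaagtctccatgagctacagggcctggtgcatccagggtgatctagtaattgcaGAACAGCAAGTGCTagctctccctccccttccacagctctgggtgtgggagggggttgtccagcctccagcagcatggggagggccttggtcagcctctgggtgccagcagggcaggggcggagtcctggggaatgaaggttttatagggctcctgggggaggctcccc
KLK2: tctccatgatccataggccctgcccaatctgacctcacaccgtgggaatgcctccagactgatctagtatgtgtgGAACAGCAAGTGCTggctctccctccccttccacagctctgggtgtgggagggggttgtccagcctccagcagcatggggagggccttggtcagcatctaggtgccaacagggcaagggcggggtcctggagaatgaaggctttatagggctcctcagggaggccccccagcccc
The match began 169 bases before the start in KLK3 and 175 bases before it in KLK2, once in each sequence, and its letters were the same in both. Of the 26246 autosomal genes in the promoter table, 62 (0.236%) held a match in the same window, and the 74 androgen-responsive genes with a promoter there held 2, these same kallikreins. A match describes letters only and is no measure of binding. The free positions of the pattern admit the bases that both kallikreins carry there, so these counts are description and no test.

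KLK3 was the most abundant of the rows that only the LNCaP table holds, at 1020 and 1094 CPM. KLK2 followed the same pattern at 240 and 237 CPM, and so did TMPRSS2, a membrane serine protease under androgen control, at 273 and 304 CPM. FOLH1, which encodes prostate-specific membrane antigen, stood at 464 and 492 CPM, although its reads may be shared with the near-identical FOLH1B. A missing row is no zero. The .primary row of TMPRSS2 is in both tables, and there it stood at 5.05 and 4.70 CPM in the libraries labelled 22Rv1 against 509 and 401 CPM in LNCaP. That is a fold of 93.3, a log2 fold change of -6.39 ± 0.17 (SE) and an adjusted p of 4.39e-99. P-values are from limma on log2(CPM + 0.5) over all shared rows with a mean of at least 1 CPM, adjusted by the Benjamini-Hochberg method, and a row was called at an adjusted p under 0.05.

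All 13 tested plain rows of the luminal identity list were lower in the libraries labelled 22Rv1, and the median of their log2 fold changes was -3.30. Over the 9081 plain rows tested, 44.3% were called higher and 16.3% lower, and the median was 0.34. STEAP2, a metalloreductase of the prostate epithelium, stood at 20.1 and 14.2 CPM against 353 and 393 CPM in LNCaP. This 21.7-fold difference (log2 fold change -4.42 ± 0.16, SE, adjusted p = 2.26e-73) was the largest in the list. CDH1, the gene for E-cadherin, stood at 17.9 and 15.5 CPM against 330 and 388 CPM, a log2 fold change of -4.38 ± 0.16 with an adjusted p of 5.20e-73. The ranges of the lines were far apart for both genes.

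The keratins and the lineage transcription factors were lower too. In bulk RNA, fewer cells that express a gene and less of its RNA per cell cannot be told apart. KRT8 stood at 17.5 and 14.8 CPM against 142 and 171 CPM, a 9.69-fold difference with an adjusted p of 8.51e-48. KRT18, its partner in the filaments of simple epithelia, stood at 33.6 and 41.2 CPM against 186 and 216 CPM. FOXA1, which opens chromatin for the androgen receptor, stood at 16.9 and 20.03 CPM against 176 and 196 CPM, 10.1-fold lower with an adjusted p of 1.54e-50. HOXB13, the HOX factor of the adult prostate, stood at 20.6 and 26.8 CPM against 161 and 181 CPM, and GATA2 at 24.1 and 24.99 CPM against 143 and 156 CPM. For these 5 genes both LNCaP libraries lay above both libraries labelled 22Rv1. The smallest difference in the list was that of AMACR, a racemase used as a tumour marker, at 2.69-fold.

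**Figure D1:**
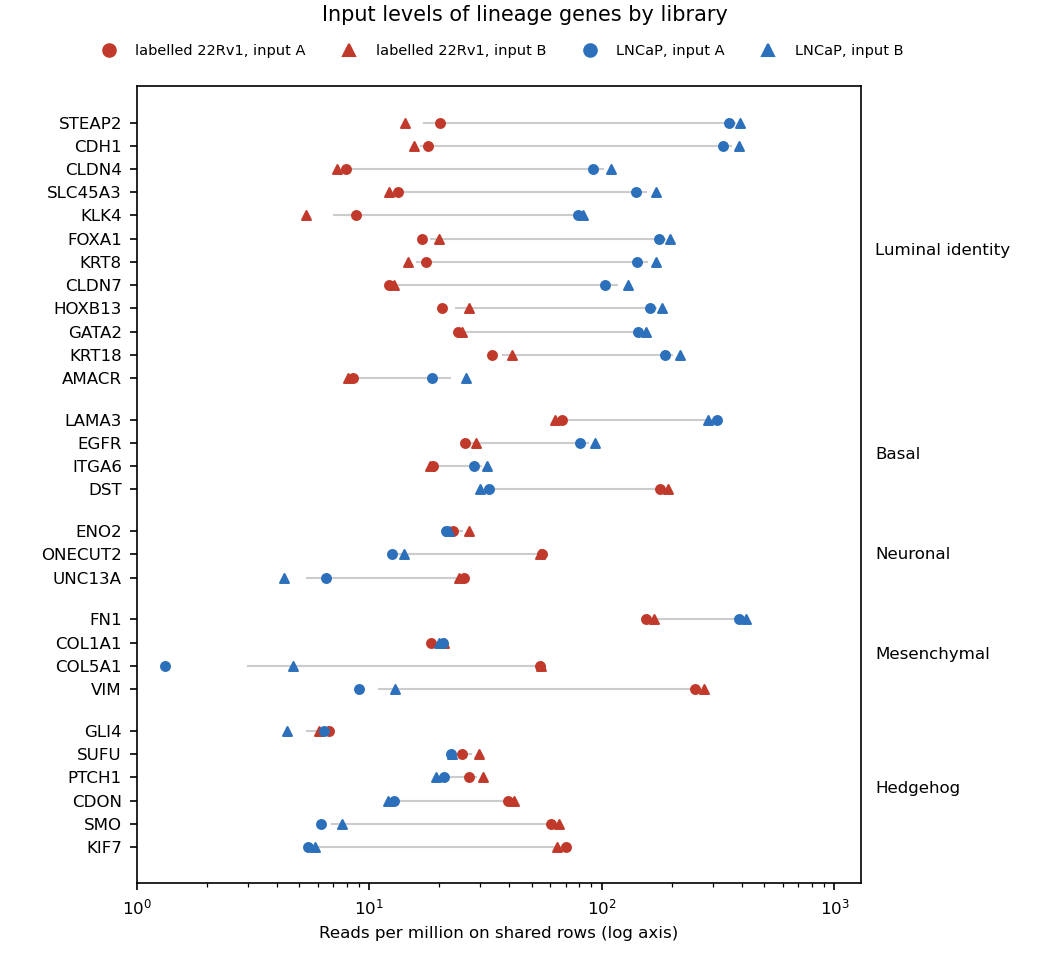
Level of tested plain rows of 5 gene lists in the 4 input libraries, in CPM over shared rows on a log axis. Circles and triangles are libraries A and B, red marks the libraries labelled 22Rv1 and blue LNCaP, and grey lines join the means. The luminal rows drawn lie lower in red, while VIM, COL5A1, SMO and KIF7 lie higher.

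Another 24 plain rows of the luminal list stood only in the LNCaP table, at mean levels from 5.16 to 1057 CPM, and none stood only in the 22Rv1 table. Of all 12196 plain rows in either table, 1341 (10.995%) stood only in the LNCaP table and 1478 (12.1%) only in the 22Rv1 table. Among the 24 luminal rows, with names chosen after their values were seen, were the surface markers EPCAM (24.4 CPM), HPN (93.5 CPM), STEAP1 (74.6 CPM) and TMEFF2 (135 CPM). The epithelial transcription factors EHF (178 CPM), GRHL2 (112 CPM) and SPDEF (66.8 CPM) were there too. The .primary rows gave the same picture, with 8 of 8 tested luminal rows lower. Over all 9750 .primary rows tested, 31.3% were called higher and 21.2% lower.

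The difference also ran through the immunoprecipitates. Summed over the 13 tested luminal rows, the level was 226 and 228 CPM in the inputs labelled 22Rv1 and 2165 and 2485 CPM in the LNCaP inputs. All 9 libraries labelled 22Rv1, whatever was precipitated, lay between 93.1 and 248 CPM, and the input and Brg1 libraries of LNCaP between 1567 and 2485 CPM. The 2 IgG libraries of LNCaP lay at 230 and 776 CPM, but hold only 22184 and 46297 reads. No library labelled 22Rv1 reached the level of the LNCaP input and Brg1 libraries.

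**Figure D2:**
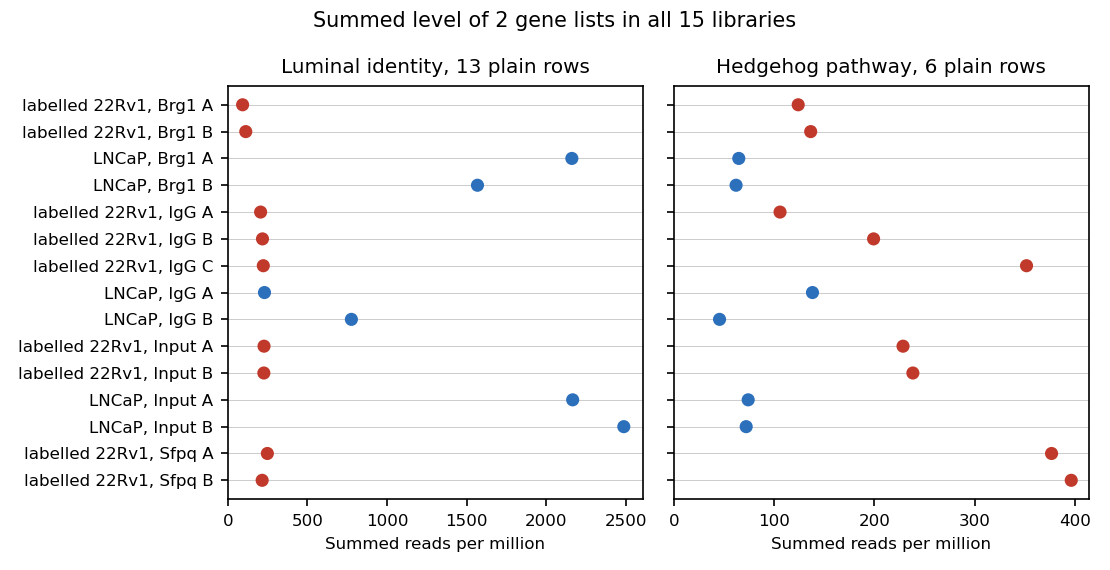
Summed CPM of the 13 luminal rows (left) and the 6 Hedgehog pathway rows (right) in each of the 15 libraries. Red marks libraries labelled 22Rv1 and blue LNCaP. On the left the 9 red points lie between 93.1 and 248, below the LNCaP input and Brg1 libraries.

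Androgen-responsive genes were mostly lower in the libraries labelled 22Rv1, but not as a block. Of 63 tested plain rows, 35 were lower, 13 higher and 15 were not called, and the median of the 63 was -0.58 (log2). Over all plain rows tested, 16.3% were lower and 44.3% higher, and the median was 0.34. With TMM scaling, described below, 41 of the 63 were lower and 11 higher, beside 27.3% and 27.0% of all rows tested. A further 12 plain rows stood only in the LNCaP table and 1, PTPN21, only in the 22Rv1 table. Of all plain rows, 10.995% stood only in the former and 12.1% only in the latter. The .primary rows gave 36 lower and 7 higher of 59, beside 21.2% lower and 31.3% higher of all .primary rows tested. Several members, KLK2, KLK3, KLK4, SLC45A3 and STEAP2 among them, are also on the luminal list. Of 10 genes listed as repressed by androgen, 5 (BCHE, CAMK2N1, SLITRK3, UGT2B15 and UGT2B17) had plain rows only in the LNCaP table and ST6GAL1 had one only in the 22Rv1 table. Just 2 of them had plain rows that could be tested, PRKD1, which was lower, and CDK8, which was not called.

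STEAP2, described above, had the largest difference among the tested plain rows. SLC45A3, a transporter known as prostein, stood at 13.4 and 12.1 CPM against 140 and 171 CPM, 12.2-fold lower with an adjusted p of 1.36e-52. KLK4, another kallikrein, stood at 8.79 and 5.35 CPM against 78.8 and 82.7 CPM. Members with broader roles lay lower as well, with names chosen after their values were seen. ABHD2, a lipase, stood at 121 and 127 CPM against 951 and 1131 CPM. Of the lipid and sterol genes, SCD, which desaturates fatty acids, had a log2 fold change of -1.38 ± 0.15 (SE, adjusted p = 7.46e-16). HMGCS1, an early enzyme of cholesterol synthesis, had a log2 fold change of -0.72. IDI1, of the same pathway, was not called (adjusted p = 0.303).

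The higher group included a classic target. FKBP5, a chaperone of steroid receptors induced by androgens and by glucocorticoids, stood at 57.7 and 71.3 CPM against 36.3 and 43.2 CPM, 1.62-fold higher. Its adjusted p was 2.12e-04, and the call was lost without input B labelled 22Rv1. The .primary row of FKBP5 was tested too and was not called. The glucocorticoid receptor gene NR3C1 had rows only in the 22Rv1 table, where the plain row stood at 24.7 and 26.4 CPM. AKAP12, a scaffold of protein kinase A, showed the largest difference of the higher group, at 145 and 142 CPM against 10.95 and 10.4 CPM (13.4-fold, adjusted p = 8.54e-54). MAF, a leucine zipper factor, stood at 33.2 and 54.6 CPM against 9.33 and 8.75 CPM, and TMEM50A had a log2 fold change of 2.20.

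Cofactors of the androgen receptor went both ways. Of 24 tested plain rows, 9 were lower and 8 higher, beside 16.3% lower and 44.3% higher of all plain rows tested. The median log2 fold change was -0.03, against 0.34 for all plain rows. With TMM scaling 11 of the 24 were lower and 5 higher, beside 27.3% and 27.0% of all rows tested. The lineage factors FOXA1, HOXB13 and GATA2 described above were among the lower ones. The largest higher values were those of the coregulator TRIM24, at 50.6 and 54.6 CPM against 21.5 and 22.5 CPM, and of the demethylase KDM1A, at 114 and 126 CPM against 55.5 and 55.1 CPM. Log2 fold changes were 1.24 for TRIM24 and 1.11 for KDM1A.

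Of the genes of steroid synthesis and inactivation, 7 had plain rows only in the LNCaP table and 1 only in the 22Rv1 table. The shares of all plain rows were 10.995% and 12.1%. UGT2B15 and UGT2B17, also on the androgen-repressed list, couple androgens to glucuronic acid and had rows only in the LNCaP table, at 71.2 and 77.4 CPM and at 106 and 120 CPM. Their sequences are close, so reads may have been split between them. Of 8 tested plain rows, 4 were lower (CYB5A, RDH11, DHRS7 and HSD17B4), 2 were higher (HSD17B12 and SRD5A1) and 2 were not called. Over all plain rows tested, 16.3% were lower and 44.3% higher. With TMM scaling 6 of the 8 were lower and 1 higher, beside 27.3% and 27.0% of all rows tested. The 8 tested .primary rows were split, with 2 lower, 2 higher and 4 not called, and with TMM scaling 3 lower and 2 higher. Of all .primary rows tested, 21.2% were lower and 31.3% higher. CYB5A, which assists the lyase step of androgen synthesis, stood at 15.8 and 13.3 CPM against 62.0 and 66.6 CPM. HSD17B12 stood at 34.9 and 36.0 CPM against 8.44 and 13.2 CPM. SRD5A1, a 5-alpha reductase, had a log2 fold change of 0.60, a call lost under TMM scaling and without either input labelled 22Rv1.

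The long RNA SCHLAP1, named for its link to aggressive prostate tumours, was 104-fold lower on its .primary row. It stood there at 17.4 and 14.5 CPM against 1813 and 1503 CPM (log2 fold change -6.66 ± 0.15, SE, adjusted p = 1.61e-112). Its plain row stood only in the LNCaP table. ETV1, an ETS factor activated by rearrangement in LNCaP, likewise had rows only there, the plain one at 99.7 and 102 CPM. SPINK1 had no row in either table. The kinase gene JAK1, known to be damaged in LNCaP and chosen after its values were seen, went with the LNCaP label. It stood at 7.55 and 5.55 CPM in LNCaP against 81.2 and 88.3 CPM in the libraries labelled 22Rv1, so the LNCaP libraries lay far below the other pair.

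HOX rows separated the tables in the opposite direction to HOXB13. Of 39 HOX genes, 28 had a plain row only in the 22Rv1 table and 1, HOXC12, only in the LNCaP table, beside 12.1% and 10.995% of all plain rows. Just 2 plain rows could be tested, HOXB13, which was lower, and HOXC6, which was not called (adjusted p = 0.123, and 0.0115 on the lower side with TMM scaling). Both of the 2 tested .primary HOX rows were higher in both scalings, with a median log2 fold change of 3.04. Of all .primary rows tested, 31.3% were higher and 21.2% lower. A further 9 .primary HOX rows stood only in the 22Rv1 table and 1 only in the LNCaP table, beside 1664 and 1428 of all .primary rows. The 28 plain rows held only by the 22Rv1 table came from all clusters: 9 of HOXA, 8 of HOXB, 5 of HOXC and 6 of HOXD. Their mean levels ran from 5.18 to 139 CPM with a median of 14.4 CPM. HOXB9 was the highest, at 133 and 145 CPM, and HOXD13, which acts at the tip of the limb and in the genital bud, stood at 46.1 and 40.2 CPM. Members of a cluster overlap with antisense transcripts, and whether strand was used in counting is not stated, so single HOX values are uncertain. HOXA6, for example, differed between the inputs, at 19.97 and 4.86 CPM.

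**Figure D3:**
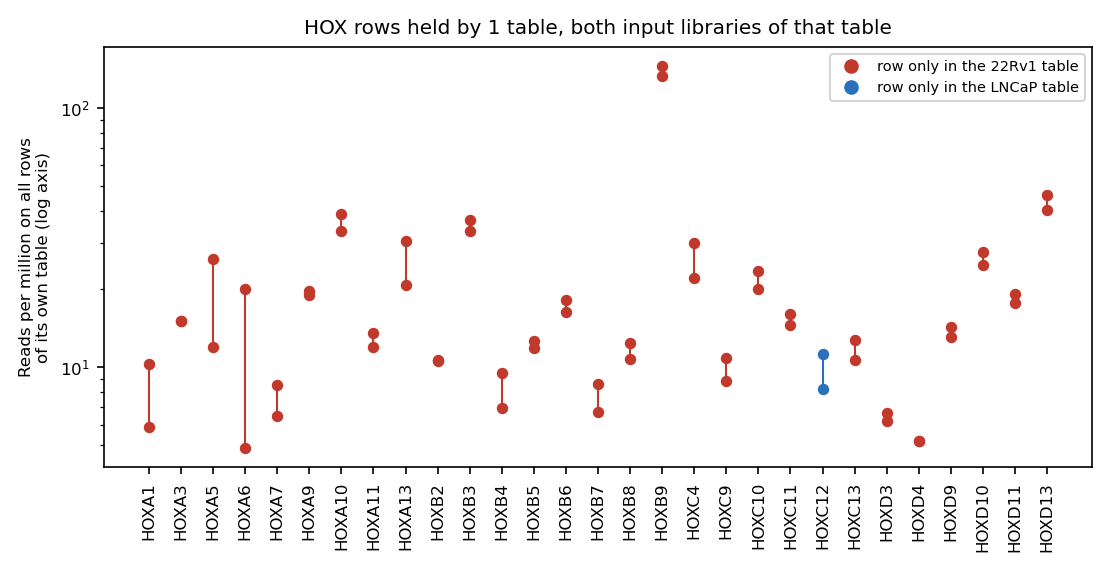
Level of each HOX row that only 1 table holds, in CPM over all rows of its own table, on a log axis. Each gene has a point for each input library, red for the 28 rows only in the 22Rv1 table and blue for HOXC12, the 1 row only in the LNCaP table. HOXB9 stands highest, at 133 and 145.

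Of the other developmental regulators, 50 had plain rows only in the 22Rv1 table and 6 only in the LNCaP table, where the shares of all plain rows were 12.1% and 10.995%. Of 24 tested plain rows on that list, 14 were higher, 4 lower and 6 not called, beside 44.3% higher and 16.3% lower of all plain rows tested. With TMM scaling the tested plain rows split into 10 higher and 9 lower, beside 27.0% and 27.3% of all rows tested. Of 24 .primary rows, 16 were higher and 4 lower, beside 31.3% and 21.2% of all .primary rows tested. With TMM scaling 12 of these .primary rows were higher and 6 lower. The summed level of the tested plain rows overlapped between the lines, at 996 and 1074 CPM against 1063 and 1136 CPM. The oncofetal RNA-binding protein IGF2BP1 led all rows found only in the 22Rv1 table, at 437 and 444 CPM. Among the others held only there, with names chosen after their values were seen, were FOXC1 (108 CPM), IGF2BP2 (66.5 CPM), HMGA2 (48.7 CPM), LIN28B (42.5 CPM), PAX6 (35.3 CPM) and SOX9 (22.4 CPM). LIN28B blocks the maturation of let-7 microRNAs, and HMGA2 is a chromatin protein of embryonic tissue.

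Among the rows that could be tested, SALL2, a zinc finger factor, stood at 64.4 and 65.9 CPM against 10.7 and 11.5 CPM (5.87-fold, adjusted p = 1.78e-28). ZIC2 and TFAP2A, factors of the neural tube and neural crest, had log2 fold changes of 2.38 and 2.35. NR2F2, an orphan nuclear receptor of mesenchyme and veins, stood at 68.5 and 81.9 CPM against 16.9 and 23.6 CPM. The 4 lower rows were FOXA1, GATA2, TBX3 and TFAP2C. TBX3, a T-box factor, stood at 39.1 and 38.3 CPM against 228 and 230 CPM. TFAP2C had a log2 fold change of only -0.64 (adjusted p = 0.0290), and its call was lost without input B labelled 22Rv1 and without LNCaP input A.

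**Figure D4:**
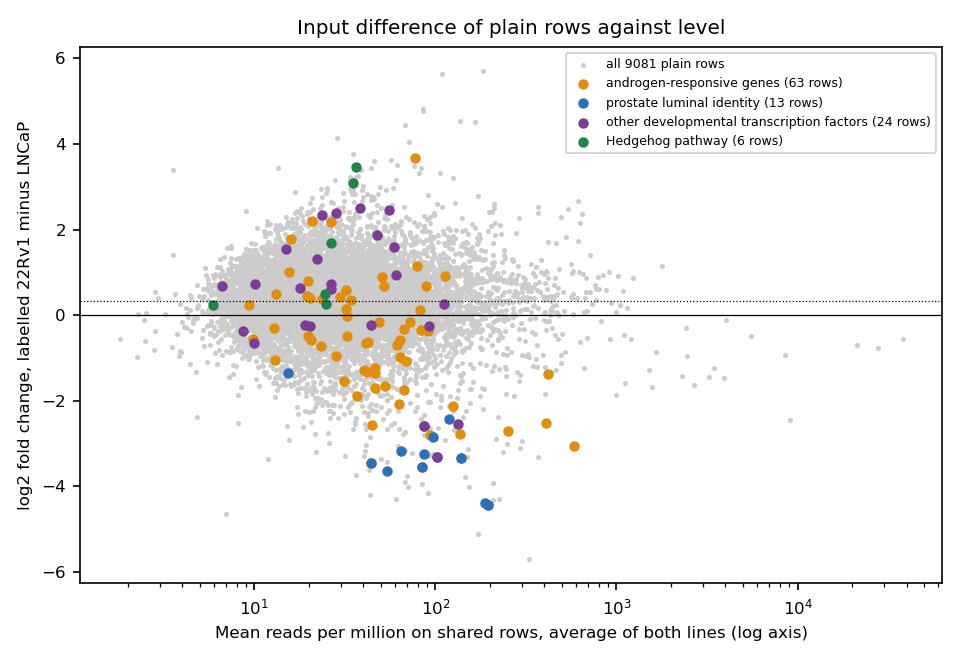
Log2 fold change of the 9081 plain rows, libraries labelled 22Rv1 minus LNCaP, against the mean level of both lines in CPM on a log axis. Grey points are all rows, coloured points 4 gene lists, and the dotted line is the median of all plain rows, 0.34. Luminal rows lie between -1.36 and -4.42, and Hedgehog rows at or above 0.24.

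Of 4 tested plain rows of mesenchymal genes, VIM and COL5A1 were higher, FN1 lower and COL1A1 not called. All plain rows tested gave 44.3% higher and 16.3% lower. The .primary rows gave 3 higher and 2 lower (FN1 and TAGLN) of 5, beside 31.3% higher and 21.2% lower of all .primary rows tested. VIM, the intermediate filament of mesenchymal cells, stood at 251 and 276 CPM against 9.03 and 12.9 CPM, 24.0-fold higher with an adjusted p of 8.73e-72. COL5A1, a fibrillar collagen, stood at 54.0 and 54.9 CPM against 1.33 and 4.72 CPM. FN1, fibronectin, went the other way, at 155 and 167 CPM against 391 and 417 CPM. A further 6 plain rows of the list stood only in the 22Rv1 table: CDH2, which encodes N-cadherin, ZEB1, ZEB2 and SNAI2, which repress CDH1, and SPARC and ACTA2. None of the list stood only in the LNCaP table, where the shares of all plain rows were 12.1% only in the 22Rv1 table and 10.995% only in the LNCaP table. CDH2 stood at 57.5 and 60.8 CPM and ZEB2 at 35.7 and 35.2 CPM. Since 12 of the 24 genes had no row in either table, and 5 of the 6 defining stromal markers had no plain row, the list describes single genes.

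Basal and neuronal lists held few rows. Counts of their plain rows stand beside 44.3% higher and 16.3% lower of all plain rows tested. Of 4 tested basal rows, LAMA3, EGFR and ITGA6 were lower and DST higher, with LAMA3 at 67.5 and 62.6 CPM against 314 and 285 CPM. The call of ITGA6 was lost without input B labelled 22Rv1. Of 3 neuronal rows, ONECUT2 and UNC13A were higher, ONECUT2 at 55.6 and 54.0 CPM against 12.6 and 14.2 CPM. The plain rows of UCHL1, NCAM1, PEG10, POU3F2, SRRM4 and SYT1 stood only in the 22Rv1 table, and that of SYT4 only in the LNCaP table. Shares of all plain rows were 12.1% and 10.995%. The .primary rows of NCAM1 and SYT1 are in both tables and were higher, with log2 fold changes of 3.86 and 2.94. Tested .primary rows gave 4 higher and none lower of 5 on the neuronal list, and 1 higher and 3 lower of 4 on the basal list. Of all .primary rows tested, 31.3% were higher and 21.2% lower.

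Signalling pathways of development are given by the roles of their members. Their counts stand beside 44.3% higher and 16.3% lower of all plain rows tested. Of all .primary rows tested, 31.3% were higher and 21.2% lower. With TMM scaling 27.0% were higher and 27.3% lower of all rows tested, plain and .primary together. In the Hedgehog pathway, SMO relays the signal that PTCH1 holds back. Of its 6 tested plain rows, 4 were higher and none lower, and the median on the log2 scale was 1.09. With TMM scaling 3 were higher and none lower. Of 7 .primary rows, 4 were higher and none lower, and with TMM scaling 4 and 2. SMO stood at 60.3 and 65.5 CPM against 6.22 and 7.63 CPM (9.09-fold, adjusted p = 1.55e-35). KIF7, which moves the pathway's proteins in the cilium, stood at 70.0 and 64.2 CPM against 5.48 and 5.83 CPM (11.9-fold). GLI2 and GLI3, the effector transcription factors, and the coreceptors BOC and GAS1 had plain rows only in the 22Rv1 table. GLI3 stood there at 56.0 and 62.5 CPM. PTCH1, itself a target of the pathway, had a log2 fold change of 0.51 (adjusted p = 0.0208), a call lost under TMM scaling and without either input labelled 22Rv1.

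Of the Wnt ligands and receptors, 7 of 10 tested plain rows were higher and 1, FZD6, lower, and with TMM scaling 5 and 1. Of 11 .primary rows, 5 were higher and 2 lower. The largest of the higher plain rows was LGR4, a receptor for R-spondins, at 21.6 and 25.9 CPM against 6.51 and 7.63 CPM. The coreceptor LRP6 stood at 83.9 and 86.2 CPM against 40.1 and 40.1 CPM. WNT5A, a ligand of the non-canonical branch, had a row only in the 22Rv1 table, at 29.1 and 32.2 CPM. All 7 tested plain rows of Wnt inhibitors and targets were higher, from APC with a log2 fold change of 0.76 to ZNRF3 with 1.73. Of 11 .primary rows of this list, 6 were higher, 2 lower and 3 not called, and with TMM scaling 6 were higher and 3 lower. KREMEN1, which removes LRP6 from the surface with its partner DKK1, stood at 61.0 and 70.8 CPM against 21.5 and 21.1 CPM. The plain rows of the targets AXIN2 and LEF1 stood only in the 22Rv1 table and that of RNF43 only in the LNCaP table. Their .primary rows are in both tables, with log2 fold changes of 0.97 for AXIN2, 3.31 for LEF1 and -1.67 for RNF43, all called.

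In the Notch pathway 5 of 10 plain rows were higher and 2 lower, near the shares of all plain rows. With TMM scaling 3 were higher and 3 lower. Of 4 .primary rows, none was higher and 1 lower. The receptor NOTCH2 stood at 261 and 287 CPM against 69.1 and 86.2 CPM (3.52-fold, adjusted p = 2.46e-24), and NOTCH3 had a log2 fold change of 1.27. The ligands JAG2, at 29.7 and 27.7 CPM against 102 and 96.9 CPM, and JAG1 were lower. HEY1, a direct target, had a row only in the 22Rv1 table, at 79.9 and 80.1 CPM.

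For the BMP and TGF-beta pathway 12 of 22 plain rows were higher and 3 lower, near the shares of all plain rows (44.3% and 16.3%). With TMM scaling 10 were higher and 7 lower, beside 27.0% and 27.3% of all rows tested. Of 26 .primary rows, 12 were higher and 5 lower. The activin receptor ACVR2B stood at 186 and 198 CPM against 17.5 and 20.4 CPM (10.2-fold, adjusted p = 4.27e-51). TGFBR1, a receptor of TGF-beta, stood at 48.2 and 51.0 CPM against 11.4 and 10.3 CPM, and SMAD3, its messenger, at 56.5 and 57.7 CPM against 11.6 and 13.7 CPM. Of 4 FGF rows, FGFR1 was higher, at 78.4 and 76.3 CPM against 10.8 and 10.7 CPM, and FGFRL1, a receptor that lacks the kinase, lower. Of 18 nuclear receptors 10 were higher and 4 lower, likewise near the shares of all plain rows, and with TMM scaling 7 and 6. NR6A1, an orphan receptor of embryonic cells, stood at 34.4 and 34.7 CPM against 6.07 and 6.11 CPM, and THRB, a thyroid hormone receptor, at 14.7 and 16.4 CPM against 44.9 and 47.5 CPM.

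**Figure D5:**
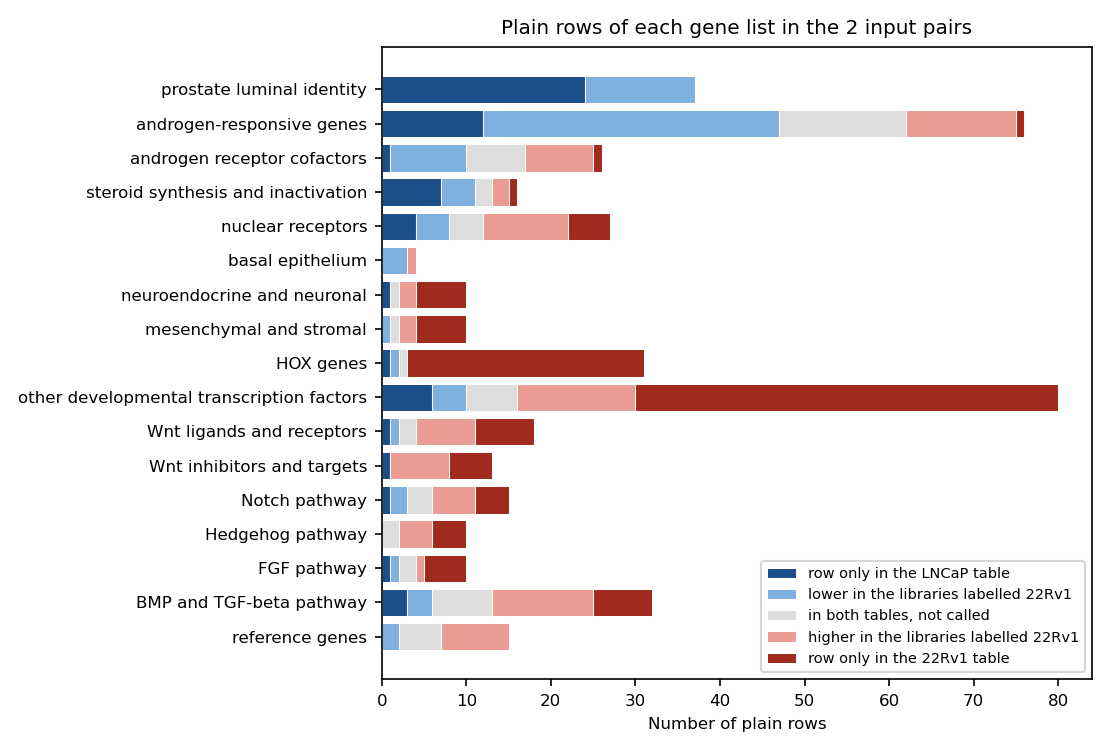
Number of plain rows of each gene list by outcome. Bars add up the rows only in the LNCaP table, lower or higher in the libraries labelled 22Rv1, tested but not called, and only in the 22Rv1 table. The luminal list holds 24 rows only in the LNCaP table and 13 lower rows, and the HOX list 28 rows only in the 22Rv1 table.

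Across all 18831 rows tested, 7079 (37.6%) were called higher and 3547 (18.8%) lower. The split depended on the scaling. The median row stood 0.23 above 0 on the log2 scale. With TMM factors, which set that median to about 0, 5090 rows were higher and 5143 lower. LNCaP gave more of its reads to a few abundant RNAs, whose part in the shift was not tested. RN7SL1, RN7SL2 and RN7SK together took 6.29% and 7.20% of reads in the libraries labelled 22Rv1 against 9.02% and 12.4% in LNCaP. Mitochondrial rows took 1.70% and 2.03% against 4.02% and 4.77%, and MALAT1, a nuclear RNA, 0.274% and 0.287% against 1.71% and 1.37%. No row was called in opposite directions by the 2 scalings, and 8634 were called alike by both. Log2 fold changes of named rows here are on the share scale and would be lower by about 0.23 under TMM. Differences of higher rows would thus shrink and those of lower rows grow.

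Outside the lists, the plain rows with the largest differences were SLC7A5 and PYGL on the higher side and PRUNE2 and SNHG14 on the lower. SLC7A5, a transporter of large neutral amino acids, stood at 351 and 371 CPM against 4.29 and 9.58 CPM, a 52.0-fold difference. PYGL, the liver form of glycogen phosphorylase, stood at 195 and 235 CPM against 3.55 and 4.03 CPM. MDK, the growth factor midkine, stood at 167 and 166 CPM against 4.44 and 7.08 CPM. PRUNE2, whose locus hosts a prostate antisense RNA, stood at 10.95 and 13.1 CPM against 635 and 654 CPM, 53.7-fold lower. The use of strand in counting is not stated, so its reads and those of its antisense partner cannot be told apart. ESRP2, a splicing factor of epithelia, stood at 4.33 and 3.85 CPM against 85.7 and 81.1 CPM, and FADS2, a fatty acid desaturase, at 20.9 and 22.1 CPM against 389 and 471 CPM. ZNF703, SH3PXD2A, AUTS2, DIS3 and HIST3H2BB were the other higher rows, the last a histone gene with close copies, and LIMCH1, PROM2, SLC30A4 and ST3GAL1 the other lower ones.

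The .primary rows reached larger folds. SLIT2, a guidance ligand of ROBO receptors, stood at 533 and 478 CPM against 7.11 and 6.94 CPM on its .primary row, 72.0-fold higher, and its plain row stood only in the 22Rv1 table. PPFIA2, an adaptor of synapses, stood at 12.2 and 8.61 CPM against 1703 and 1406 CPM, 150-fold lower. LUZP2 stood at 9.51 and 10.4 CPM against 1498 and 1239 CPM. NAALADL2, FILIP1L and LINC01667 were the other lower rows of the largest fold, and CACNB4, SMOC1 and SFMBT2 were among the higher ones. The most abundant rows held by only 1 table included the detoxifying enzyme GSTP1 (142 and 152 CPM) and the cyclin CCND2 (185 and 203 CPM) for 22Rv1, and SPON2 (539 and 564 CPM) and GDF15 (334 and 413 CPM) for LNCaP. SPTBN1, a spectrin found in most cells, had its plain row only in the 22Rv1 table, at 324 and 329 CPM. On its .primary row, named after its value was seen, SPTBN1 had 91.3 ± 12.5 CPM (SD, n = 2) against 7.55 ± 1.05 CPM (SD, n = 2).

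Reference genes set the scale for these values. ACTB stood at 983 and 1062 CPM against 898 and 1041 CPM, so the lines overlapped. GAPDH stood at 895 and 963 CPM against 1172 and 1389 CPM, a log2 fold change of -0.46 (adjusted p = 0.0128). Of 15 reference rows, 8 were higher, 2 lower and 5 not called, beside 44.3% higher and 16.3% lower of all plain rows tested. Their median log2 fold change was 0.38, against 0.34 for all plain rows. With TMM scaling 4 of the reference rows were higher and 3 lower, beside 27.0% and 27.3% of all rows tested. SMARCA4, which encodes Brg1, stood at 324 and 310 CPM against 220 and 228 CPM, a call lost under TMM scaling. SFPQ stood at 473 and 470 CPM against 209 and 204 CPM, 2.29-fold higher with an adjusted p of 1.23e-12. Calls for GAPDH and SMARCA4 were also lost without either input labelled 22Rv1.

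The same rows were then read in the Brg1 immunoprecipitates, which are other libraries of the same lines and were not used for the calls. Both Brg1 libraries labelled 22Rv1 lay above both of LNCaP for 26.8% of plain rows and below them for 43.7%. In these libraries the .primary rows took 65.5% and 62.5% of reads on shared rows, against 50.9% and 60.7% in LNCaP. Plain rows as a whole thus had a smaller share in the Brg1 libraries labelled 22Rv1, and the part of this in the counts below was not tested. Of the rows called lower in input, 1429 of 1479 lay below without overlap, and of those called higher, 2133 of 4024 lay above. All 13 luminal rows and all 35 lower androgen-responsive rows lay below, and 12 of the 14 higher developmental factors and 8 of the 13 higher androgen-responsive rows lay above. Those shares stand beside 96.6% and 53% for all called rows.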

How the data were processed

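RNA sequencing of 15 libraries was deposited as normalized counts (the unit here is signal), with a table for each line; the submitters' processing notes name hg38, STAR 2.6, Salmon 0.8.2, deepTools 2.5.2 and DESeq2, with no role given. Annotation and filters are not given in the sources used here. In each library 100% of the deposited signal values were whole multiples of the smallest positive value within 0.001 read, so dividing by it recovered reads and removed the scaling that the authors set separately for each table. Only the 4 input libraries entered the test. Totals ran from 7054033 to 47871438 reads, and counting error and library spread set the precision.

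Row names were matched to RefSeq symbols or synonyms (GRCh38.p14): 18250 of the 19400 shared rows matched. The 1150 without a match were tested but not named, and 565 rows of X- or Y-linked genes were left out. Library totals on the shared rows gave CPM. limma 3.58.1 (eBayes with trend, R 4.3.3) was run on log2(CPM + 0.5) for the 18831 rows with a mean of at least 1 CPM, with the groups as labelled and no covariate. Rows were called where the Benjamini-Hochberg adjustment gave a value under 0.05. The code was tested on simulated data. edgeR 4.0.16 and DESeq2 1.42.0 on the recovered reads, TMM and other scalings, filters, thinning, a replicate block and leaving out each library were the alternatives.

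Named rows were those with the largest differences by kind and direction, up to 4 called rows per list and direction, 22 genes always given, and the most abundant rows held by only 1 table; PCGEM1 had only a .primary row, in the LNCaP table. Some genes within these rules and lists are counted but not reported here by name. The members and lists were chosen with earlier results of these data known, and the direction of a list is therefore no independent evidence. List members held by only 1 table were named after their values were seen. The plain rows of the prostate long non-coding RNA, endothelial and gastrointestinal lists were too few to describe: 0, 0 and 1 were tested.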

Additional observations from a re-analysis of the deposited data

How the results depend on the processing

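Recovered reads and the match of line and table limit every value: a difference between lines cannot be separated from one between tables, and depth differed up to several-fold. The count of rows higher in the libraries labelled 22Rv1 was 7079 and of rows lower 3547. Requiring an absolute log2 fold change of at least 1 as well left 3026 and 1639, 6 of the 13 higher androgen-responsive rows and 8 of the 14 higher developmental factors. DESeq2 with its own size factors called 4548 rows higher. The 4 lower developmental factors became 9 with TMM factors, 9 with median-of-ratios factors and 9 with edgeR. The labels give the letters A and B in both lines and do not say whether libraries of the same letter belong together. The deviations of the A libraries correlated at 0.106 between the lines. This is 1 comparison and cannot decide whether they were paired. With the letter as a replicate block 7793 rows were higher and 4000 lower. Leaving out 1 library at a time gave 4854 to 7504 rows higher, 2490 to 3896 lower, 13 to 13 luminal rows lower, 27 to 36 androgen-responsive rows lower and 10 to 16 higher, and 10 to 14 developmental factors higher and 3 to 4 lower. Where leaving out a library leaves 1 sample in a line, that sample is assumed to vary like the other line.

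Of 130 single rows followed through 19 alternatives, 126 were called, and none of these changed direction; 21 lost the call in at least 1 alternative. Rows that were not called changed sign: ACTB had a log2 fold change of -0.16 with TMM, -0.17 with median-of-ratios factors, -0.17 with edgeR, -0.17 with DESeq2, and -0.028 to 0.19 with 1 library left out. With 1 library left out, SFPQ.primary ranged from -0.31 to 0.070. The cause was not tested.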

Other observations

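ROBO1, a receptor for the SLIT2 ligand, was read because of SLIT2. It stood at 143 and 161 CPM in the libraries labelled 22Rv1 against 13.5 and 13.7 CPM in LNCaP, a log2 fold change of 3.43 ± 0.17 (SE), so ligand and receptor rows were both higher there. The nuclear RNA NEAT1 stood at 468 and 397 CPM against 1700 and 1436 CPM, the same direction as MALAT1. The .primary rows of MME, a surface peptidase, and NCAM2, an adhesion molecule, had log2 fold changes of -5.84 and -6.78.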
